A study of Mus musculus with 6 samples.

Results

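Glycolysis and hypoxia response genes were examined in colonic tumors of mice with a wildtype or a dimerization-deficient glucocorticoid receptor. The members were 36 genes chosen by name from the 24797 genes of the deposited count table: 16 glycolytic enzymes, 4 regulators of glycolytic flux and 16 other genes of the hypoxia response. All 36 were in the table and all 36 passed the filter on low counts. The 6 tumors all arose under AOM/DSS, a model that pairs the carcinogen azoxymethane with dextran sulfate sodium, a polymer that causes colitis. The genotype was GRwt, the wildtype receptor, in 3 samples and GRdim, a receptor impaired in forming dimers, in the other 3. Polyadenylated RNA was sequenced from each tumor. The labels give no strain, age, sex or number of animals, and do not say whether a sample held 1 tumor or several, and p-values therefore rest on a sample-to-sample spread that may be technical in part.

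Glycolysis splits glucose into pyruvate, which lactate dehydrogenase can turn into lactate so that the pathway keeps running without oxygen. When oxygen is low, prolyl hydroxylases of the Egln family no longer mark the alpha subunits of the hypoxia-inducible factors (HIF) for destruction, and HIF then binds short response elements in DNA and raises transcription of most glycolytic enzymes together with genes for acid export, blood vessel tone, collagen folding and removal of mitochondria. Since the HIF alpha proteins are controlled mainly by their stability, the level of their transcripts says little about their activity. The colonic epithelium borders an almost oxygen-free lumen and lives under low oxygen in the healthy state, and tumors commonly use glycolysis heavily.

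Library totals ran from 21132981 to 36222351 counts. The library names of GRwt replicate 3 and GRdim replicate 1 hold a T that the labels do not explain. Rn18s-rs5, a ribosomal sequence, made up 2.51% and 2.05% of these 2 libraries and 0.0466% to 0.0725% of the others. The same number stands in the library names of GRdim replicates 1 and 3. Whether both came from 1 animal is not stated in the labels; if they did, GRdim holds 2 animals, and every n, SD and p given here for 3 GRdim samples overstates the replication. With these 2 libraries summed, 0 members passed the threshold and 27 of 36 were lower in GRdim. GRdim replicate 2 was the only library with more than 15 counts of the Y-linked gene Ddx3y. It had 2101, and 9 counts of Xist, an RNA of female cells, against 12225 to 46247 in the other libraries. By these genes it was the only male library, so sex differed within GRdim and was not balanced between genotypes. The part of sex in the values was not tested. All 10 epithelial markers were detected, with summed levels of 13130 to 20070 CPM (counts scaled to the library total) in GRwt and 13012 to 15635 CPM in GRdim. All 10 were lower in GRdim, with a median log2 fold change of -0.17 and 0 past the threshold.

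Transcripts of most members stood slightly lower in GRdim than in GRwt tumors, but no member passed the test. The fold change was larger than its standard error for 19 of the 36. In the edgeR quasi-likelihood test over 18756 genes, with a Benjamini-Hochberg adjusted p under 0.05 as the threshold, 0 of 36 members and 0% of all genes were called. The smallest adjusted p of any gene was 0.518, and that of every member 0.9999. An unadjusted p under 0.05 was found for 541 genes, 2.88% of those tested, and for 3 members. DESeq2 called 33 genes, 0.189% of those it adjusted, and limma-voom 0; none of the 33 was a member. Log2 fold changes are GRdim minus GRwt, and they were below 0 for 28 of 36 members, against 49.4% of all genes tested. The median over the members was -0.19, against 0.00402 over all genes tested and -0.17 over the 10 epithelial markers, whose part in the members' values was not tested, and the standard errors of single members ran from 0.15 to 0.34. For 5 members, Adm, P4ha1, P4ha2, Ldha and Bnip3l, every GRdim library was below every GRwt library. These were 13.9% of the members, against 3.57% of all genes tested. For 0 members was every GRdim library above every GRwt library, against 2.98% of all genes. An unadjusted p under 0.05 was found for 3 members lower in GRdim (Adm, P4ha1 and Car9), against 1.09% of all genes, and for 0 members higher in GRdim, against 1.79%.

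**Figure D1:**
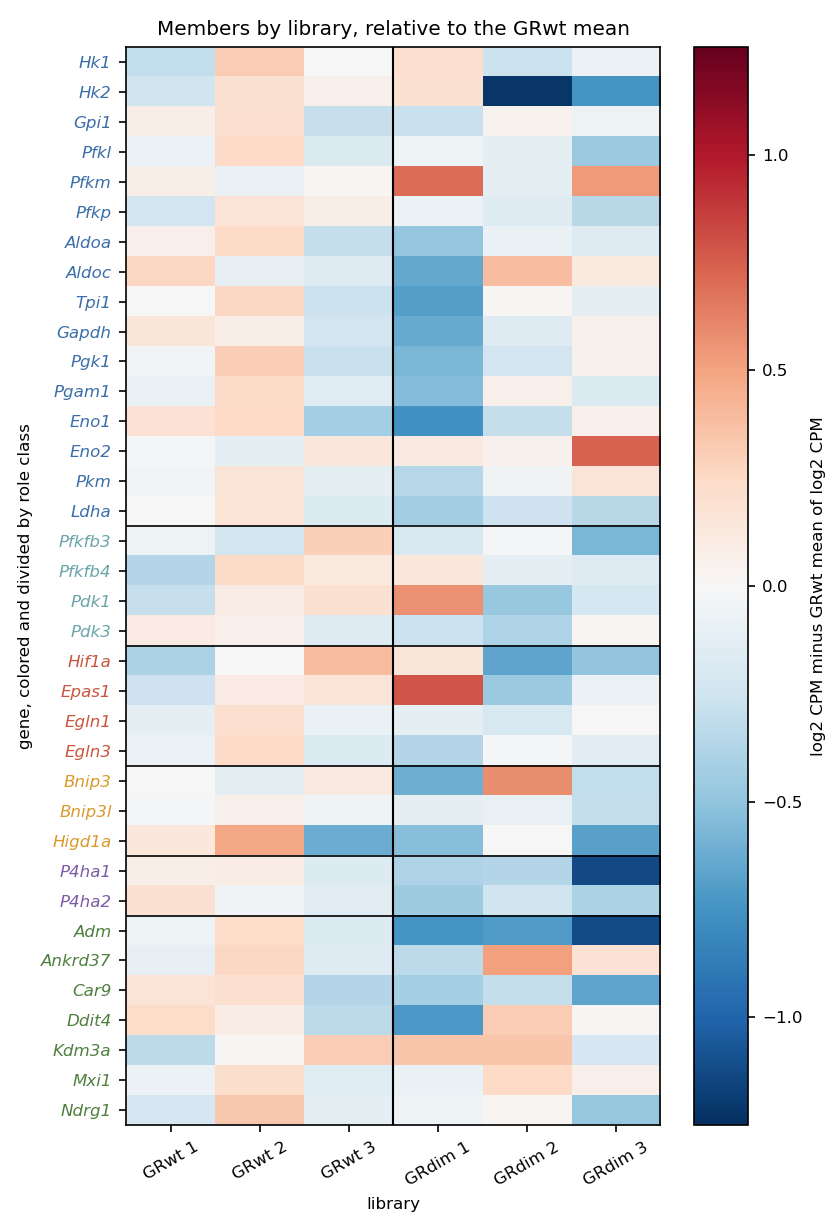
The 36 members (vertical axis, divided by role class) in the 6 libraries (horizontal axis), colored by log2 CPM minus the GRwt mean of log2 CPM for that gene. Adm and both P4ha genes are below the GRwt mean in all 3 GRdim libraries, whereas Epas1, Pdk1 and Pfkm are high in GRdim replicate 1.

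The 16 glycolytic enzymes stood at levels that differed widely between genes and little between genotypes. Set per kilobase of exon, with exon lengths from GENCODE M21, the highest mean levels were those of Aldoa (387 CPM per kb), Ldha (247), Pkm (202), Tpi1 (199) and Gapdh (141), and the lowest were those of Pfkm (2.81) and Eno2 (2.04). The fold change was below 0 for 13 of the 16 and above 0 for Pfkm, Aldoc and Eno2, the 3 enzymes of lowest level per kilobase; Aldoc, at 0.01, was below 0 with relative log expression factors in place of TMM. The class median of the log2 fold change was -0.21, and it was -0.09 without GRdim replicate 1, -0.08 without GRwt replicate 2 and -0.31 without GRwt replicate 3.

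Ldha, the lactate dehydrogenase subunit that favors lactate formation (chromosome 7, 46490899 to 46505051, plus strand, GRCm39), stood at 913, 1027 and 809 CPM in GRwt replicates 1, 2 and 3. In GRdim replicates 1, 2 and 3 it stood at 674, 763 and 719 CPM. It was the only glycolytic enzyme whose genotypes did not overlap, with a gap of 763 to 809 CPM between the nearest libraries. The log2 fold change was -0.35 with a standard error of 0.20 (95% interval -0.81 to 0.11). Permuting the genotypes exactly, two-sided, gave p = 0.1, the smallest that 3 samples against 3 allow, for this gene and for the other 4 without overlap.

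Aldoa, the aldolase that cleaves fructose bisphosphate, was the most abundant member by either scale. It stood at 1261, 1426 and 984 CPM in GRwt and at 866, 1139 and 1085 CPM in GRdim replicates 1, 2 and 3. GRwt replicate 3 lay below GRdim replicates 2 and 3, so the genotypes overlapped, and the log2 fold change was -0.25 with a standard error of 0.24 (95% interval -0.79 to 0.29). The next enzymes of the chain moved with it from library to library. Tpi1, which interconverts the triose phosphates, ran from 489 to 704 CPM in GRwt and from 364 to 592 CPM in GRdim. Gapdh, the triose phosphate dehydrogenase often used as a loading control, ran from 529 to 693 CPM in GRwt and from 402 to 647 CPM in GRdim. Their libraries fell in a like order, lowest in GRdim replicate 1 and next lowest in GRwt replicate 3. Pgk1 and Pgam1, the kinase and mutase of phosphoglycerate, had log2 fold changes of -0.25 and -0.21, each with a standard error near its own size (0.22 and 0.21). Eno1, an enolase, ran from 231 to 368 CPM in GRwt and from 184 to 325 CPM in GRdim. Its near-identical copy Eno1b, listed as a separate gene, held 14.96% to 17.4% as many counts as Eno1 in each library, and how reads were divided between them is not known. Pkm, pyruvate kinase, had a log2 fold change of -0.07 with a standard error of 0.22, and Gpi1, which converts glucose phosphate to fructose phosphate, of -0.11 with a standard error of 0.21.

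Many of these enzymes shared their lowest and highest libraries. For 10 of the 16 enzymes, GRwt replicate 3 was the lowest GRwt library and GRdim replicate 1 the lowest GRdim library: Gpi1, Aldoa, Aldoc, Tpi1, Gapdh, Pgk1, Pgam1, Eno1, Pkm and Ldha. These are the 2 libraries with a T in their names. GRwt replicate 2 was the highest of the 6 libraries for 10 of the 16 enzymes, and GRdim replicate 1 the lowest for 9. GRwt replicate 2 also had the highest summed epithelial markers, 20070 CPM, and GRwt replicate 3 and GRdim replicate 1 the lowest, 13130 and 13012 CPM. In bulk samples, fewer cells of a type and less RNA per cell cannot be told apart, and the part of epithelial content in these values was not tested.

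Isozymes gave a further view, as shares of the CPM per kb summed over the members of a family. Hk2, the inducible hexokinase of tumors, held 70.5%, 67.8% and 70.7% of the hexokinase signal of Hk1 and Hk2 in GRwt replicates 1, 2 and 3. In GRdim replicates 1, 2 and 3 it held 69.4%, 54.5% and 59.2%. GRdim replicates 2 and 3 were thus below all GRwt libraries in this share, while GRdim replicate 1 lay among them. In CPM, Hk2 stood at 240.5, 326 and 299 in GRwt and at 327, 124 and 172 in GRdim, and its log2 fold change of -0.47 had a standard error of 0.34 (95% interval -1.26 to 0.31). That value was -0.97 without GRdim replicate 1 and -0.21 without GRdim replicate 2. Hk1, the widely expressed hexokinase, had a log2 fold change of -0.05 with a standard error of 0.22.

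Phosphofructokinase, which commits sugar to glycolysis, was drawn mainly from Pfkl, the liver type, at 58.9% to 65.6% of the family, and Pfkp, the platelet type, at 28.0% to 34.2%. Pfkm, the muscle type, held 4.6% to 6.4% in GRwt and 9.2%, 5.7% and 10.4% in GRdim replicates 1, 2 and 3. Its level was 8.45, 7.53 and 8.18 CPM in GRwt and 13.03, 7.40 and 11.6 CPM in GRdim. Replicates 1 and 3 of GRdim were high and replicate 2 was the lowest of all 6, with a log2 fold change of 0.41 and a standard error of 0.27 (95% interval -0.21 to 1.03). Smooth muscle markers were high in the same 2 GRdim libraries, though in the other order. Their summed level was 2702, 1255 and 6537 CPM in GRdim replicates 1, 2 and 3 and 1306 to 1497 CPM in GRwt, with 10 of 10 markers higher and 0 past the threshold. The part of muscle in the Pfkm values was not tested. Shares of Eno2, the enolase of neurons, were taken of Eno1 and Eno2 alone. They were 2.4% to 4.4% in GRwt and 3.8% to 5.4% in GRdim. Eno1b and Eno3, no members, were left out. Eno3 had a mean of 85.7 CPM per kb, against 53.0 for Eno1, and a log2 fold change of 0.62 (standard error 0.37). The highest level of Eno2, 14.1 CPM, was that of GRdim replicate 3, against 7.78 to 9.37 CPM in the other 5 libraries. Enteric neuron markers summed to 74.3 CPM in that library and to 49.1 to 73.6 CPM in the others. Without it the log2 fold change of Eno2 was 0.07 in place of 0.33. Aldoc, a brain-type aldolase, held 2.1% to 3.6% of the summed CPM per kb of Aldoa and Aldoc.

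**Figure D2:**
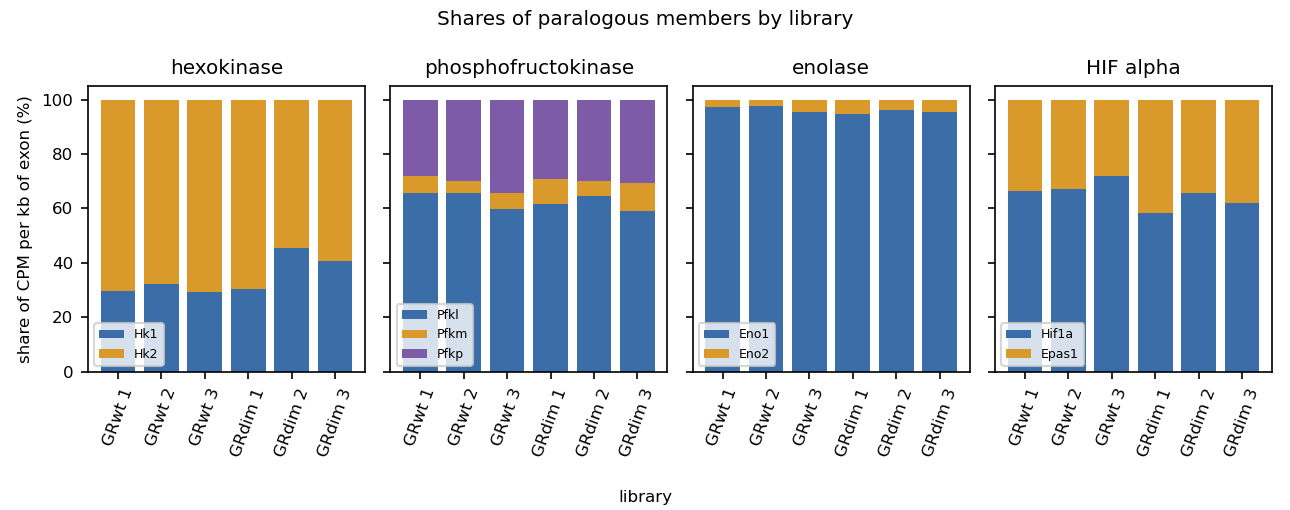
Shares of paralogous members (vertical axis, percent of CPM per kb of exon summed over the genes shown) in each of the 6 libraries (horizontal axis). Hk2 holds 67.8% to 70.7% in GRwt and 54.5% to 69.4% in GRdim, and Hif1a has a share of 58.5% to 65.5% of the HIF alpha signal in GRdim and 66.6% to 71.9% in GRwt.

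Of the 4 regulators of glycolytic flux 0 passed the threshold, and 2 had a fold change larger than its standard error. Pfkfb3 and Pfkfb4 make fructose 2,6-bisphosphate, the activator of phosphofructokinase, and Pdk1 and Pdk3 inhibit pyruvate dehydrogenase and so keep pyruvate out of mitochondria. Pfkfb3 stood at 34.1, 30.4 and 43.8 CPM in GRwt and 31.3, 35.02 and 24.1 CPM in GRdim, with a log2 fold change of -0.26 and a standard error of 0.22 (95% interval -0.75 to 0.23). Pdk3 stood at 28.7, 27.97 and 23.9 CPM in GRwt and 22.2, 20.5 and 27.3 CPM in GRdim, with a log2 fold change of -0.20 and a standard error of 0.19 (95% interval -0.63 to 0.23). The genotypes of both genes overlapped. Pdk1, a HIF target, stood at 49.6, 64.5 and 68.7 CPM in GRwt and 89.5, 43.5 and 51.7 CPM in GRdim. GRdim replicate 1 was the highest library and GRdim replicate 2 the lowest, and the log2 fold change was 0.01 with a standard error of 0.28. Pfkfb4 had a log2 fold change of -0.06 with a standard error of 0.22.

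Among the oxygen-sensing genes, Hif1a and Epas1 encode HIF-1 alpha and HIF-2 alpha. Hif1a varied widely among the libraries of both genotypes, and Epas1 mainly among the GRdim libraries. Hif1a stood at 163, 215 and 281 CPM in GRwt and 239, 135 and 153 CPM in GRdim, with a log2 fold change of -0.32 and a standard error of 0.28 (95% interval -0.97 to 0.32). Epas1, which is abundant in endothelial cells, stood at 77.5, 99.5 and 104 CPM in GRwt and 160.5, 67.6 and 88.4 CPM in GRdim, with a log2 fold change of 0.17 and a standard error of 0.31. In each genotype the library with a T in its name was the highest for both genes, as it was for Pdk1 and Kdm3a. The balance between the 2 genes gave a different picture. Hif1a held 66.6%, 67.2% and 71.9% of their summed CPM per kb in GRwt and 58.5%, 65.5% and 62.1% in GRdim, so the genotypes did not overlap. This ratio was chosen after its values were seen and was not tested. Summed endothelial markers stood at 260, 183 and 255 CPM in GRwt and 332, 175 and 362 CPM in GRdim, high in GRdim replicates 1 and 3. These were also the GRdim libraries with the larger shares of Epas1, though in the other order. In GRwt the 2 did not go together, as replicate 3, at 255 CPM, had the lowest Epas1 share of all libraries, 28.1%. The part of vessels in that share was not tested.

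Egln1 and Egln3 encode prolyl hydroxylases that mark HIF alpha, and Egln3 is itself strongly induced by HIF. Egln3 stood at 135.5, 169 and 127 CPM in GRwt and 111, 142 and 130.1 CPM in GRdim, which overlapped, with a log2 fold change of -0.17 and a standard error of 0.19 (95% interval -0.60 to 0.26). Egln3 held 66.3% to 72.8% of the summed CPM per kb of the pair in the 6 libraries. Egln1 had a log2 fold change of -0.11 with a standard error of 0.17.

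Of the 3 mitochondrial genes, Bnip3 and Bnip3l encode receptors that direct mitochondria to autophagy, and Higd1a a small inner membrane protein induced by hypoxia. Bnip3l (chromosome 14, 67222688 to 67246326, minus strand, GRCm39) stood at 87.9, 92.9 and 85.6 CPM in GRwt and 81.7, 82.9 and 72.0 CPM in GRdim. The genotypes did not overlap, but the nearest libraries were 82.9 and 85.6 CPM, and the log2 fold change was -0.17 with a standard error of 0.15 (95% interval -0.52 to 0.18). Higd1a stood at 108, 137 and 64.2 CPM in GRwt and 68.0, 97.9 and 61.5 CPM in GRdim. The low GRwt replicate 3 lay below GRdim replicates 1 and 2, and the log2 fold change of -0.45 (standard error 0.30, 95% interval -1.12 to 0.23) was -0.71 without that library and -0.19 without GRwt replicate 2. Bnip3 ran from 10.3 to 23.6 CPM, and GRdim held both its lowest and its highest library.

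Both members that encode collagen prolyl hydroxylases were lower in every GRdim library. P4ha1 and P4ha2 encode catalytic subunits of the enzyme that hydroxylates proline in collagen, which the triple helix needs. P4ha1 (chromosome 10, 59159118 to 59209126, plus strand, GRCm39) stood at 57.8, 58.5 and 48.5 CPM in GRwt and 41.9, 42.3 and 25.05 CPM in GRdim. The lowest GRwt library was 48.5 and the highest GRdim library 42.3 CPM, and the log2 fold change was -0.59 with a standard error of 0.23 (95% interval -1.12 to -0.07). GRdim replicate 3 was the lowest, and without it the value was -0.39. P4ha2 (chromosome 11, 53990921 to 54022491, plus strand, GRCm39) stood at 24.97, 21.2 and 19.8 CPM in GRwt and 16.02, 18.4 and 16.6 CPM in GRdim, with a log2 fold change of -0.37 and a standard error of 0.19 (95% interval -0.80 to 0.06). P4ha1 was 1.51 times and P4ha2 1.29 times higher in GRwt by the fitted values. Fibroblast markers had a summed level of 2241, 1600 and 1612 CPM in GRwt and 2530, 1013 and 2423 CPM in GRdim, with 7 of 9 markers higher in GRdim and 0 past the threshold, and their part in the P4ha values was not tested. The beta subunit of the same enzyme, P4hb, no member and singled out with its values in view, stood at 999.7, 966 and 873 CPM in GRwt and 747, 729 and 764 CPM in GRdim. Its genotypes did not overlap either, with a log2 fold change of -0.34 and a standard error of 0.19 (95% interval -0.78 to 0.10).

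Adm had the largest fold change of the 36 members. It encodes adrenomedullin, a vasodilator peptide that hypoxia and inflammatory cytokines induce (chromosome 7, 110226868 to 110229027, plus strand, GRCm39). It stood at 10.98, 13.4 and 10.2 CPM in GRwt replicates 1, 2 and 3, from 369, 264 and 368 counts, and at 6.89, 6.999 and 5.29 CPM in GRdim, from 184, 247 and 144 counts. Every GRwt library was above 10 CPM and every GRdim library at or below 7 CPM. The means were 11.5 ± 1.69 and 6.39 ± 0.957 CPM (SD, n = 3 per group), and the log2 fold change was -0.85 with a standard error of 0.25 (95% interval -1.41 to -0.28). Over the alternatives it ran from -0.99 to -0.73. Neutrophil markers were also lower in every GRdim library, summing to 211 to 348 CPM in GRwt and 150 to 205 CPM in GRdim with 12 of 12 lower, and the part of inflammation in the Adm values was not tested.

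Car9, the cell surface carbonic anhydrase that serves as a marker of hypoxic tissue, stood at 55.5, 56.6 and 38.1 CPM in GRwt and 36.9, 39.98 and 31.3 CPM in GRdim. GRwt replicate 3 lay within the GRdim range and the other 2 GRwt libraries above it. The log2 fold change was -0.47 with a standard error of 0.21 (95% interval -0.94 to -0.00), and -0.66 without GRwt replicate 3. Ndrg1, a stress-responsive protein widely used as a hypoxia marker, stood at 158, 232 and 169 CPM in GRwt and 177, 187 and 132 CPM in GRdim, with a log2 fold change of -0.17 and a standard error of 0.22. Its genotypes overlapped. The other 4 genes of this class had fold changes smaller than their standard errors: Ddit4, an inhibitor of mTOR signalling, at -0.08, Mxi1, an antagonist of Myc, at 0.08, and Kdm3a, a histone demethylase, and Ankrd37, a HIF target of little-known function, each at 0.16. Ddit4 is also a well-known target of glucocorticoids. It stood at 189, 171 and 128 CPM in GRwt and 97.5, 200.3 and 162 CPM in GRdim, so that GRdim held both the lowest and the highest library.

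**Figure D3:**
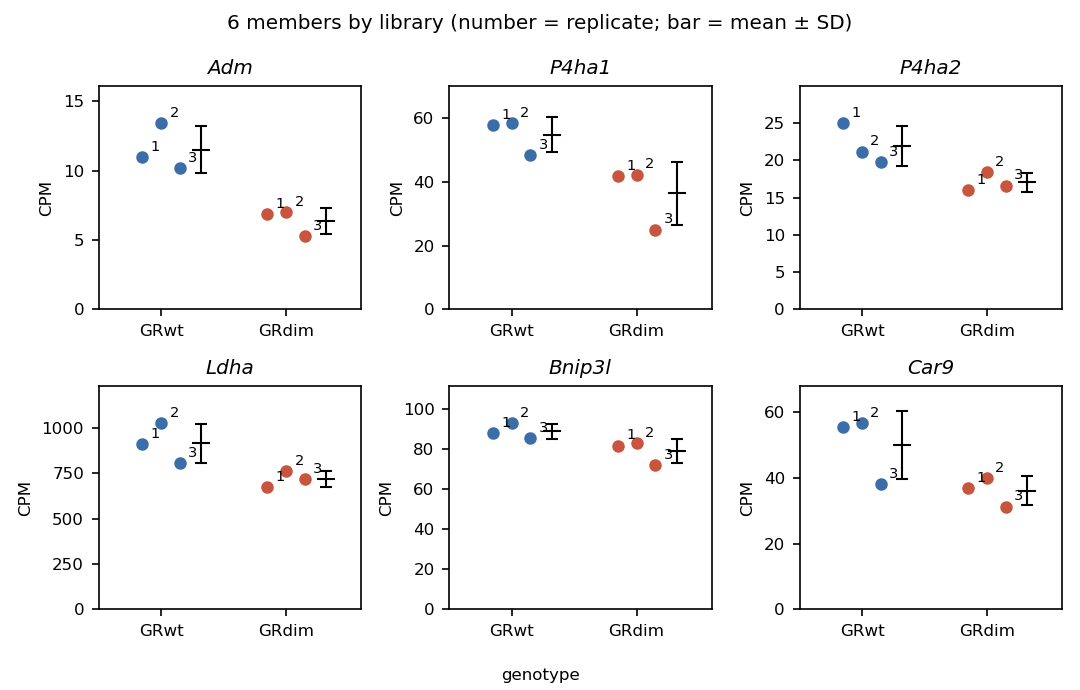
CPM (vertical axes, starting at 0) of 6 members by genotype (horizontal axes); points are libraries with their replicate numbers and bars give mean ± SD of 3 libraries. For Adm, P4ha1, P4ha2, Ldha and Bnip3l the genotypes do not overlap, and for Car9 GRwt replicate 3 lies within the GRdim range.

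Promoter windows of the members were searched for the core of the hypoxia response element. RefSeq windows of 300 bases, 250 before to 50 after the start of a gene in the build GRCm38.p6, matched 33 of the 36 members. The letters ACGTG or GCGTG, on either strand and with overlapping matches joined into 1 stretch, were found in the first window of 26 of these 33 members (78.8%), against 43.8% of the first windows of all 27025 genes. By class the count was 10 of 16 glycolytic enzymes and 12 of 13 other hypoxia genes with a window. The first 6 of the members described by library, in order of p, whose window held a match are shown 5′ to 3′ on the strand of the gene, with the matching letters in capitals. The Adm window (chr7:110627407-110627706, plus strand) held 2 stretches, that of P4ha1 (chr10:59323046-59323345, plus strand) 3, that of Car9 (chr4:43506776-43507075, plus strand) 1, that of P4ha2 (chr11:54100674-54100973, plus strand) 4, that of Ldha (chr7:46845554-46845853, plus strand) 5 and that of Higd1a (chr9:121857747-121858046, minus strand) 2.
Adm: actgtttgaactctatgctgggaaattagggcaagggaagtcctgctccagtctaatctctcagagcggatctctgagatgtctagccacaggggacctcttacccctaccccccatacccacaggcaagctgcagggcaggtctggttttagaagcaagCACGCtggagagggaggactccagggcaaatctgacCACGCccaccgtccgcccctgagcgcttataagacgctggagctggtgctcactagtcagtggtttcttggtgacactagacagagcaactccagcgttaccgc
P4ha1: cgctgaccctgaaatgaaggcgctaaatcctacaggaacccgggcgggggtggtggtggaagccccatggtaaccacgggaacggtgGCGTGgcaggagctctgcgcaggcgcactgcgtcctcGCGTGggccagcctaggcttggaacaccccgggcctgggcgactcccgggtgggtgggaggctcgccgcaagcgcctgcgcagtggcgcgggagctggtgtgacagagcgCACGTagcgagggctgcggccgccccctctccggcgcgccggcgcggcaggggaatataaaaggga
Car9: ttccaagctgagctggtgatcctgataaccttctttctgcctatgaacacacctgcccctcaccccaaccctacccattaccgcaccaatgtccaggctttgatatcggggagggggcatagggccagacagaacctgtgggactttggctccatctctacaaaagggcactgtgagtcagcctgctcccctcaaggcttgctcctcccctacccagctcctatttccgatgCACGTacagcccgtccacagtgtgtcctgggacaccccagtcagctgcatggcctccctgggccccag
P4ha2: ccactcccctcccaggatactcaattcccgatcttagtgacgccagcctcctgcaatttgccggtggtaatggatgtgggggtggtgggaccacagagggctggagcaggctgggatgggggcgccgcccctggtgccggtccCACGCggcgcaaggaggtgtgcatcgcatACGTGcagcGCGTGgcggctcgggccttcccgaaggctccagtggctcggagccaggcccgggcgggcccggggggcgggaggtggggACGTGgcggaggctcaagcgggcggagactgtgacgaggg
Ldha: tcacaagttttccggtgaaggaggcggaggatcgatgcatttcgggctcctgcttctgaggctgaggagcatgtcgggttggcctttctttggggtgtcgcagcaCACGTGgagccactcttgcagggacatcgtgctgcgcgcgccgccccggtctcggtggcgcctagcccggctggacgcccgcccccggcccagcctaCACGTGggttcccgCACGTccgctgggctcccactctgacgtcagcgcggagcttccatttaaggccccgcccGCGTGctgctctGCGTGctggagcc
Higd1a: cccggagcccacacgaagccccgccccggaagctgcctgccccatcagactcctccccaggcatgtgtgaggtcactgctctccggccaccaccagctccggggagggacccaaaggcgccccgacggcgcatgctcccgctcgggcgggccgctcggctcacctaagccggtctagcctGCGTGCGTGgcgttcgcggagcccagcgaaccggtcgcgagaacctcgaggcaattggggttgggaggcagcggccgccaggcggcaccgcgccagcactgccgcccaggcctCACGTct
Ldha had the most stretches of all 33 first windows, and 2 of its 5 read CACGTG, where the core is present on both strands. Bnip3, Pdk3 and Pfkp, whose genotypes overlapped, held 4 stretches each in their first windows, as did P4ha2. Whether the lower members differ from the others in stretches was not tested. Tpi1, Gpi1 and Eno2 had no stretch in any window. A match is only a description of the letters and does not show that a factor binds.

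The contrast of the 2 classes, glycolytic enzymes against the other hypoxia genes, gave no separation of the genotypes. Every library received a score for each class, the mean log2 CPM of its genes relative to the GRwt mean. The enzymes scored -0.01, 0.16 and -0.14 in GRwt, by replicate, and -0.27, -0.15 and -0.05 in GRdim. The score of the 16 other hypoxia genes was -0.05, 0.15 and -0.10 in GRwt and -0.22, -0.06 and -0.36 in GRdim. Each score overlapped between genotypes, and the GRdim means lay 0.16 and 0.21 below the GRwt means, beside SDs of 0.11 to 0.15. The difference between the scores was 0.04, 0.01 and -0.04 in GRwt and -0.04, -0.09 and 0.31 in GRdim. GRdim replicate 3 alone stood apart, with hypoxia genes low and enzymes near the GRwt mean. It was also the library with the highest smooth muscle sum, 6537 CPM, and the highest squamous epithelium sum, 757 CPM against 80.5 to 143 CPM in the other 5, and the part of these tissues was not tested. The mean difference of GRdim from GRwt was 0.06, and -0.07 without GRdim replicate 3. The median log2 fold changes of single genes, -0.21 for the enzymes and -0.17 for the other hypoxia genes, were closer than the standard error of a typical member. Within the second class the score of the P4ha pair differed most, at 0.14, 0.02 and -0.16 in GRwt and -0.42, -0.31 and -0.76 in GRdim, and that of the HIF subunits and prolyl hydroxylases least, with a difference of -0.13 between the means.

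**Figure D4:**
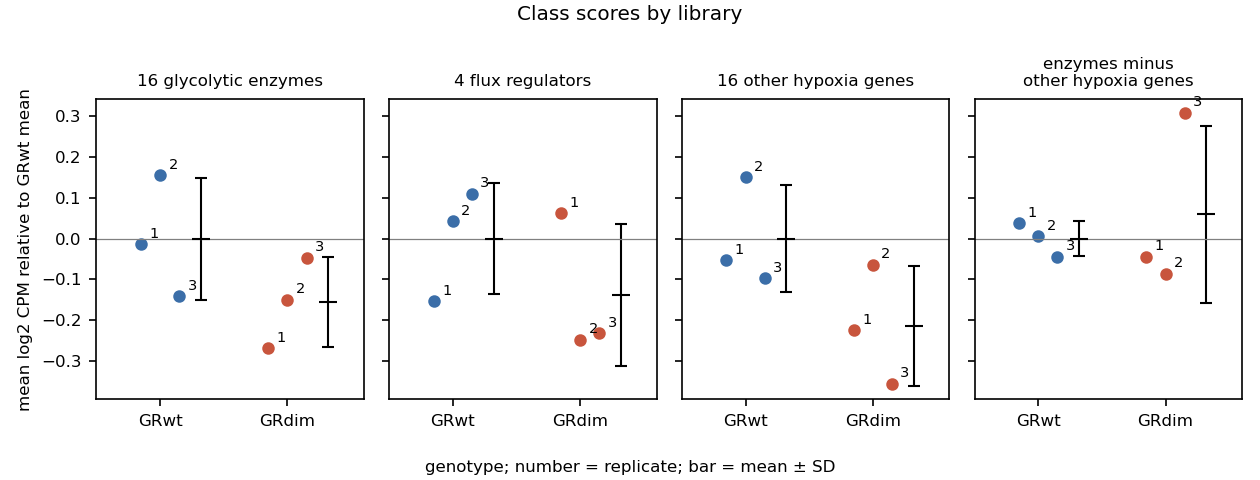
Class scores (vertical axis, mean log2 CPM of the class relative to the GRwt mean) by genotype (horizontal axis), with points for libraries, numbers for replicates and bars for mean ± SD of 3 libraries. The genotypes overlap in both main classes, and GRdim replicate 3 stands at 0.31 in the difference between the classes.

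**Figure D5:**
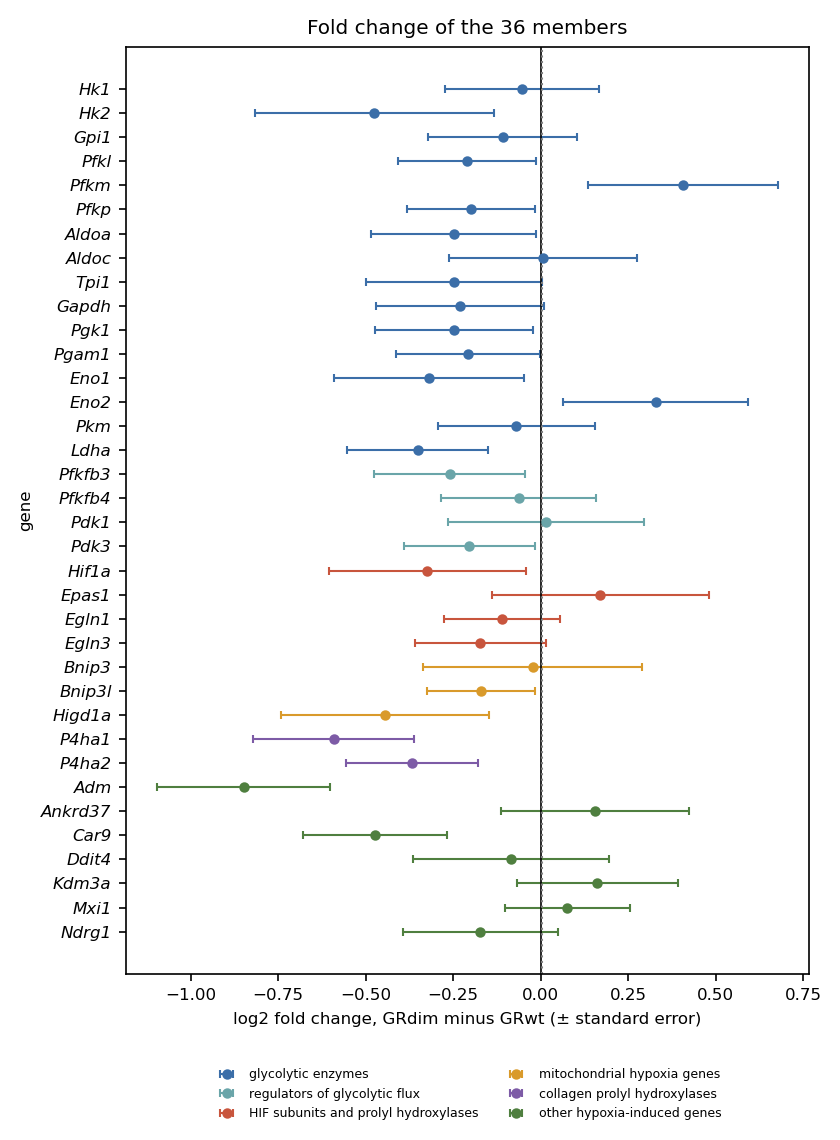
Log2 fold change of each member, GRdim minus GRwt, with its standard error (horizontal axis) for the 36 genes (vertical axis), colored by role class; the dotted line is the median of all genes tested, 0.00402. Values range from -0.85 for Adm to 0.41 for Pfkm, and 19 of the 36 lie further from 0 than their standard error.

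Among further genes of the same pathways, which were not members, none passed the threshold, and the directions differed between the lists. Of 42 further hypoxia and HIF genes 27 were lower and 15 higher (median -0.17), with 2 lower and 0 higher at an unadjusted edgeR p under 0.05. Stc1, a secreted calcium-regulating hormone, stood at 17.5, 17.95 and 25.5 CPM in GRwt and 14.97, 11.7 and 10.5 CPM in GRdim, without overlap (log2 fold change -0.71, standard error 0.24, 95% interval -1.27 to -0.16). Ppp1r3c, which promotes glycogen storage, had a log2 fold change of 0.93 with a standard error of 0.42, and its highest library was GRdim replicate 3 at 9.77 CPM.

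The 35 further genes of glycolysis and pyruvate use divided evenly, 19 lower and 16 higher (median -0.03), with 0 lower and 1 higher at an unadjusted edgeR p under 0.05. That gene was Pdk4, the pyruvate dehydrogenase kinase of fasting and fat use, which glucocorticoids are known to induce. It stood at 5.77, 3.51 and 4.04 CPM in GRwt and 3.33, 15.4 and 20.4 CPM in GRdim (log2 fold change 1.55, standard error 0.57, 95% interval 0.24 to 2.86). GRdim replicates 2 and 3 were high and GRdim replicate 1 was the lowest of all 6. Pdk2, a further kinase of the family, had a log2 fold change of 0.50 with a standard error of 0.23. The members Pdk1 and Pdk3 had values of 0.01 and -0.20, and differences between the kinases were not tested. Of 13 genes of the pentose phosphate and serine branches, 11 were lower and 2 higher (median -0.20), with 1 lower and 0 higher at an unadjusted edgeR p under 0.05. Phgdh, the entry enzyme of serine synthesis, stood at 23.4, 26.3 and 19.5 CPM in GRwt and 14.8, 15.3 and 16.9 CPM in GRdim, without overlap (log2 fold change -0.56, standard error 0.20). Rpe, an epimerase of the pentose phosphate pathway, had no overlap either (log2 fold change -0.36, standard error 0.16), and H6pd, which runs the first steps inside the endoplasmic reticulum, had a value of -0.30 with a standard error of 0.21. Of 13 regulators of glycolytic gene expression 6 were lower and 7 higher (median 0.03), with 0 in either direction at an unadjusted edgeR p under 0.05. Among them Mlx, a partner of the glucose-sensing factors, had a log2 fold change of -0.26 with a standard error of 0.18, and Foxk1 and Foxk2, forkhead factors that promote glycolysis, of 0.24 and -0.16 with standard errors of 0.20 and 0.16. Proliferation markers, whose cells draw on these pathways, were lower for 10 of 10 genes, with sums of 797 to 959 CPM in GRwt and 689 to 708 CPM in GRdim and 0 past the threshold, and their part in these values was not tested.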

How the data were processed

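The authors deposited read counts per gene, not normalized, for 6 tumor libraries. Per the submitters' processing notes, bcl2fastq 2.20.0.422, Trim Galore, FastQC, MultiQC, STAR 2.7.8a, featureCounts of Subread 1.5.0 and DESeq2 1.40.2 were used with the build GRCm39. The annotation release, the strand setting and the handling of reads shared by near-identical genes are not given in the sources used here, which bears on enzymes with retrocopies, such as Eno1 and Gapdh.

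Library columns were matched to samples by library name. Aldoa had 2 rows, of which the one with 11 to 23 counts was left out. Genes were tested with edgeR 4.0.16 in R 4.3.3 (TMM scaling, default filter by genotype, robust dispersions), which left 18756 genes. CPM are counts scaled to the TMM-adjusted library total, log2 CPM used a prior count of 2, and standard errors are the log2 fold change over the square root of F. The common biological coefficient of variation was 0.330. The procedure was tested on simulated data, in which the changed genes had larger fold changes than any member. Its power for changes as small as those of the members was not tested.

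Members and lists were chosen with earlier results of these data known. Values by library are given for members with an unadjusted p under 0.05 or no overlap, and in each of 6 role classes for the 2 of smallest p and the 1 of highest CPM, and for up to 3 genes of smallest p in each further list. Results of some genes under this rule are not reported here. Other values by library were chosen after they were seen. Alternatives were DESeq2 1.42.0, limma-voom (limma 3.58.1), relative log expression factors, no filter, the T in library names as a covariate, a replicate block, GRdim replicates 1 and 3 summed, the 4 libraries with no T alone, and each library left out. Exon lengths came from GENCODE M21 by gene ID, and differ in build from the counts.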

Additional observations from a re-analysis of the deposited data

How the results depend on the processing

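No member passed the threshold under any of 14 alternatives, and 0 of the further pathway genes did. The count over all genes was 0 in each except DESeq2, which called 33. Of the 36 members 25 kept their direction in every alternative and 11 did not; the number lower in GRdim ran from 25 to 30. The median of the glycolytic enzymes ran from -0.31 to -0.08 and that of the other hypoxia genes from -0.26 to -0.06, and both were smallest without GRwt replicate 2. With the replicate number as a block the medians were -0.21 and -0.17; same-numbered libraries had correlations of deviations of -0.39, 0.03 and -0.43, and nothing in the labels pairs them. The block changed no call.

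The class difference of 0.06 was 0.012 with medians over members and ran from -0.065 (without GRdim replicate 3) to 0.13 with 1 library left out. Members lower without overlap numbered 15 among the 4 libraries with no T (against 18.7% of all genes there). Dropping GRwt replicates 1, 2 and 3 in turn gave 6, 5 and 12 such members (all genes 6.05%, 6.07% and 12.0%). Dropping those of GRdim in the same order gave 7, 8 and 6 (all genes 10.0%, 7.34% and 6.27%). The 5 genes named belong to every such count by definition, since removing libraries cannot create an overlap. Their presence there is therefore no test of stability. These counts without overlap, and the numbers lower, were chosen after seeing the data.

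Directions turned for 11 members, whose log2 fold changes ran from -0.17 (Ndrg1) to 0.17 (Epas1), and the cause was not tested. Aldoc (0.01) was -0.0079 with DESeq2, -0.0062 with relative log expression factors, -0.0054 with no filter, -0.045 with the T covariate and -0.037 with the block. Pdk1 (0.01) was -0.0020 with DESeq2, -0.18 with limma-voom, -0.012 with no filter, -0.046 with the T covariate, -0.048 with the block, -0.11 with GRdim replicates 1 and 3 summed and -0.26 among the libraries with no T. Epas1 (0.17) was -0.086 with limma-voom and -0.18 among the libraries with no T. Bnip3 (-0.02) was 0.13 with limma-voom, 0.14 with the 2 summed and 0.26 among the libraries with no T, and Ddit4 (-0.08) was 0.014 and 0.0059 in the last 2. With 1 library left out, Aldoc ran from -0.22 to 0.24, Ankrd37 from -0.061 to 0.35, Bnip3 from -0.46 to 0.20, Ddit4 from -0.33 to 0.15, Epas1 from -0.27 to 0.41, Hk1 from -0.19 to 0.12, Mxi1 from -0.019 to 0.19, Ndrg1 from -0.28 to 0.014, Pdk1 from -0.36 to 0.21, Pfkfb4 from -0.22 to 0.059 and Pkm from -0.20 to 0.055.

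With 3 samples per genotype the standard errors of members, 0.15 to 0.34, leave small differences undetectable.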
